A study of Mus musculus with 4 samples.

Results

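The genes described here are 10 genes of glucose uptake and glycolysis in the mouse heart: Slc2a4, Hk2, Pfkm, Aldoa, Gapdh, Pgam2, Eno3, Pkm, Ldha and Ldhb. They were taken by symbol from 25044 genes, and the transcript rows of a symbol in the deposited tables were summed. A row without a matching symbol was kept as a gene of its own. Whole-heart RNA was measured in 4 sequencing libraries. Every group is a single library made from a pool of 3 hearts of mice aged 12 weeks. For dC10mut the mice were of the cMyBP-CΔC10mut line, which carry a transgene with a 25-bp variant of MYBPC3 and serve as the model of hypertrophic cardiomyopathy, and its counterpart NTG stands for nontransgenic mice, both labelled C57BL/6. For tt they were cMyBP-C(t/t), the model of dilated cardiomyopathy, and their counterpart is named only as control, both labelled FvB/N. MYBPC3 encodes cardiac myosin binding protein C, a protein of the thick filament of the sarcomere. The promoter of the transgene was not given in the sources used here, and a pool of hearts shows no spread between animals.

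In the heart muscle cell, glucose enters through insulin-regulated carriers, is trapped as glucose phosphate by hexokinase and is then split and oxidised to pyruvate. ATP is spent at the early kinase steps and formed at the late ones. Pyruvate is either reduced to lactate by lactate dehydrogenase or burned in the mitochondria. The adult heart draws most of its ATP from fatty acids, and several steps of glycolysis are carried in muscle by isozymes encoded by genes of their own.

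Of the 10 genes, only Hk2 and Pgam2 reached 10 counts in any library. The tt library held 50 counts of Hk2, against 24 in control, and 52 counts of Pgam2, against 93 in control. The dC10mut library held 27 counts of Hk2, against 32 in NTG, and 98 counts of Pgam2, against 74 in NTG. Slc2a4, Gapdh, Ldha and Ldhb were listed at 0 in all 4 libraries, and Pfkm, Aldoa, Eno3 and Pkm never held more than 5 counts in a library. The 10 genes together held 134 counts in dC10mut, 111 in NTG, 112 in tt and 122 in control. These sums were 0.0715%, 0.0651%, 0.0601% and 0.0691% of the library totals of 187365, 170543, 186420 and 176633 counts in the same order, and their exact Clopper-Pearson 95% intervals ran between 0.0495% and 0.0847%.

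**Figure D1:**
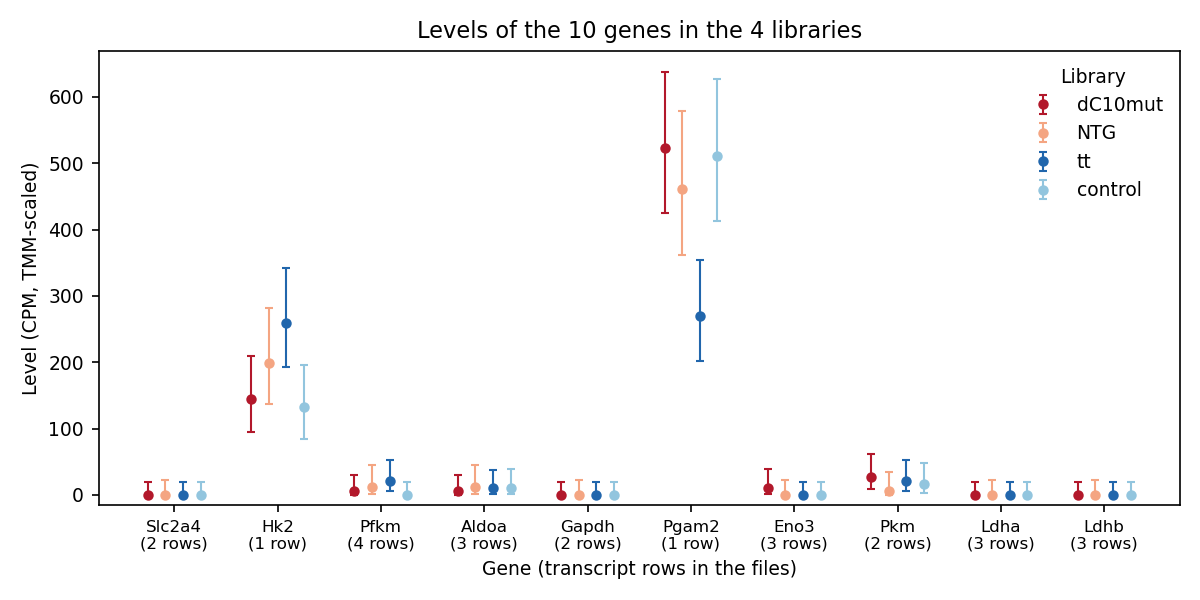
Scaled level of each of the 10 genes in the 4 libraries, in CPM (library-scaled counts); points are single libraries, bars the exact Poisson 95% interval (counting error only), and the number of transcript rows is given under each gene. Hk2 was highest in tt at 259.6 CPM and Pgam2 lowest in tt at 270.0 CPM, while the other 8 genes lay at or near 0.

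The first step after uptake is carried by hexokinase, and Hk2 encodes the isozyme that is typical of insulin-sensitive muscle and binds to the outer mitochondrial membrane. Hk2 lies on chr6:82725025-82774454, on the minus strand of GRCm38 (mm10), and has 1 transcript row of 5513 bases in the tables. After scaling by TMM factors, its level in CPM, counts rescaled to a common library size, was 144.2 CPM in dC10mut (exact Poisson 95% interval 95 to 209.8), against 199.5 CPM in NTG (136.5 to 281.7). It was 259.6 CPM in tt (192.7 to 342.3), against 131.9 CPM in control (84.5 to 196.3). The tt level thus lay above the other 3 libraries, although its interval overlapped those of NTG and dC10mut and touched that of control at their ends.

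A later step, the shift of the phosphate group that readies the molecule for enolase, is carried by phosphoglycerate mutase. Pgam2 encodes its muscle isozyme, and lies on chr11:5801637-5803796, on the minus strand of GRCm38, with 1 transcript row of 840 bases. Its level was 523.3 CPM in dC10mut (424.8 to 637.7), against 461.4 CPM in NTG (362.3 to 579.2). It was 270.0 CPM in tt (201.7 to 354.1), against 511.3 CPM in control (412.7 to 626.4). The tt library was the lowest of the 4, and its interval did not reach those of the other 3.

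Per kb of transcript, a scale that allows for transcript length, the counted reads of Pgam2 lay above those of Hk2 in every library. From which strand these reads came cannot be told, as set out below. The order is therefore one of counted reads and gives no order of the RNA levels of the genes. The level of Pgam2 was 623 CPM per kb in dC10mut, 549 in NTG, 321 in tt and 609 in control, and that of Hk2 was 26.2, 36.2, 47.1 and 23.9 CPM per kb in the same libraries. In raw counts, which need no scaling between libraries, there were 3.63 Pgam2 counts per Hk2 count in dC10mut (exact 95% interval 2.35 to 5.78), against 2.31 in NTG (1.51 to 3.62). The ratio was 1.04 in tt (0.69 to 1.57), against 3.88 in control (2.45 to 6.35). The tt library stood apart from its control in this ratio of counts, since those intervals did not overlap, and the dC10mut and NTG intervals did. Transcript length goes along with such ratios, as set out below. In tt against control, genes under 1 kb, like Pgam2, had a median log2 ratio of -0.44. Genes of 4 to 7 kb, like Hk2, had a median of 0.28. The part of length in the ratio of Pgam2 to Hk2 counts was not tested.

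The promoters of these genes are printed because they are the only members whose counts could be compared, and because their sequences differ in kind. Each run is the 250 bases before the transcript start in RefSeq (GRCm38.p6), read 5′ to 3′ on the gene's own strand. In Hk2 (chr6:82774455-82774704, minus strand) capitals mark the hypoxia core ACGTG and the GC box GGGCGG on either strand. CACGT and CCGCCC are thus the same motifs on the other strand. In Pgam2 (chr11:5803797-5804046, minus strand) capitals mark the MEF2 core TATTTNTA, also searched on both strands.
Hk2: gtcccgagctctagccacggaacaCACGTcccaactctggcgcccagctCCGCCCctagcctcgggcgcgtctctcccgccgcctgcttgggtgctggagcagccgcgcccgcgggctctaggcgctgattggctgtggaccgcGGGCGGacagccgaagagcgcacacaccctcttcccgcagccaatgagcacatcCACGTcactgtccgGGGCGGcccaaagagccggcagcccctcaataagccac
Pgam2: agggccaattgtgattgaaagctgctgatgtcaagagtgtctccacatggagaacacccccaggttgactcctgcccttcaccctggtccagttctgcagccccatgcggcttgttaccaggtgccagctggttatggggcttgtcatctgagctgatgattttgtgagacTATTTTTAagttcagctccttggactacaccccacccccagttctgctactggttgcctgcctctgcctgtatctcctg
The Hk2 run held ACGTG at 2 places and GGGCGG at 3 places that did not overlap one another, and no TATTTNTA. The Pgam2 run held TATTTNTA at 1 place and neither of the other motifs. Of 32851 promoters of this length, 16.6% held ACGTG, 32.7% held GGGCGG and 5.44% held TATTTNTA. Of the 16 promoter entries found for the 10 genes, 7, 5 and 1 did, in that order, and Slc2a4 had no entry. The motifs were chosen after the sequences were seen, and a match describes the letters only.

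Hk2 and Pgam2 were then compared within each pair of libraries. With 1 library per group there is no replicate check and no p-value, so higher and lower were assigned only by a rule of size: a scaled ratio of at least 2-fold whose exact 95% counting interval excluded equality. Of these 2 genes, 0 passed it in either pair, where 13.1% of the 2114 genes with at least 10 counts passed in dC10mut against NTG and 12.8% of 2253 in tt against control, and 4.33% and 4.28% of all genes with a ratio did. In tt against control the log2 ratio of Hk2 was 0.96 (0.25 to 1.74), a 1.95-fold higher level in tt, and that of Pgam2 was -0.91 (-1.44 to -0.42), a 1.89-fold lower level in tt. Both intervals left out equality, and both ratios would pass a smaller limit of 1.5-fold, as did 20.9% of the genes with at least 10 counts.

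In dC10mut against NTG the log2 ratio of Hk2 was -0.46 (-1.26 to 0.32) and that of Pgam2 was 0.18 (-0.27 to 0.64). Both intervals included equality, so no difference was detectable at this depth, and the Hk2 interval still reached past 2-fold in the lower direction. Between the counterparts, control against NTG, the log2 ratio was -0.59 (-1.42 to 0.21) for Hk2 and 0.15 (-0.31 to 0.61) for Pgam2. Beside them, 8.41% of 2069 genes lay past the 2-fold rule. The ratios of tt against control and of dC10mut against NTG thus had opposite signs in both genes, although the dC10mut intervals included equality. The log2 ratio in the tt pair minus that in the dC10mut pair was 1.42 (0.41 to 2.43) for Hk2 and -1.09 (-1.75 to -0.44) for Pgam2, with intervals from counting error. By the same rule 4.27% of 9344 genes with a count differed between the pairs. The share among genes with at least 10 counts was not computed. Within the pairs that share was higher, 13.1% beside 4.33% in dC10mut against NTG and 12.8% beside 4.28% in tt against control. The strain label and the model cannot be told apart in the difference between the pairs. Transcript length also went along with the ratios of each pair, as set out below, and its part in this difference was not tested.

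A difference shared by both mutant libraries was sought in a quasi-likelihood fit (edgeR) in which each pair formed a block. Hk2 gave a log2 fold change of 0.25 and Pgam2 of -0.37, both with a Benjamini-Hochberg adjusted p = 0.998 in edgeR. Neither passed the threshold, which 0.177% of the 7360 genes tested did, 8 higher and 5 lower in the mutant libraries. Among those 13 were Tsix (10.2) and Xist (6.41), higher in the mutant libraries, and the Y-linked Ddx3y (-5.96), lower, so this contrast also holds the sex of the pools; the part of sex in the other calls cannot be told apart.

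The ratios ran with transcript length, and Hk2 and Pgam2 lie near the ends of that range. Across genes with 1 transcript row, no exon of another gene on the opposite strand and at least 10 counts, Spearman's rho between length and log2 ratio was 0.31 in tt against control (n = 1086 genes of the same libraries) and -0.20 in dC10mut against NTG (n = 997). In tt against control, genes of 4 to 7 kb had a median log2 ratio of 0.28, with the 10th and 90th percentiles at -0.56 and 1.20, and genes under 1 kb had a median of -0.44, with percentiles at -1.12 and 0.54. Hk2 exceeded the median of its length class by a log2 ratio of 0.68 and Pgam2 lay below that of its class, with a difference of -0.47; both were inside the 10th to 90th percentile range of their class. In dC10mut against NTG the class medians were 0.03 for 4 to 7 kb and 0.46 for under 1 kb, and Hk2 and Pgam2 differed from them by -0.49 and -0.28. The part of length in the Hk2 and Pgam2 ratios was not tested further.

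**Figure D2:**
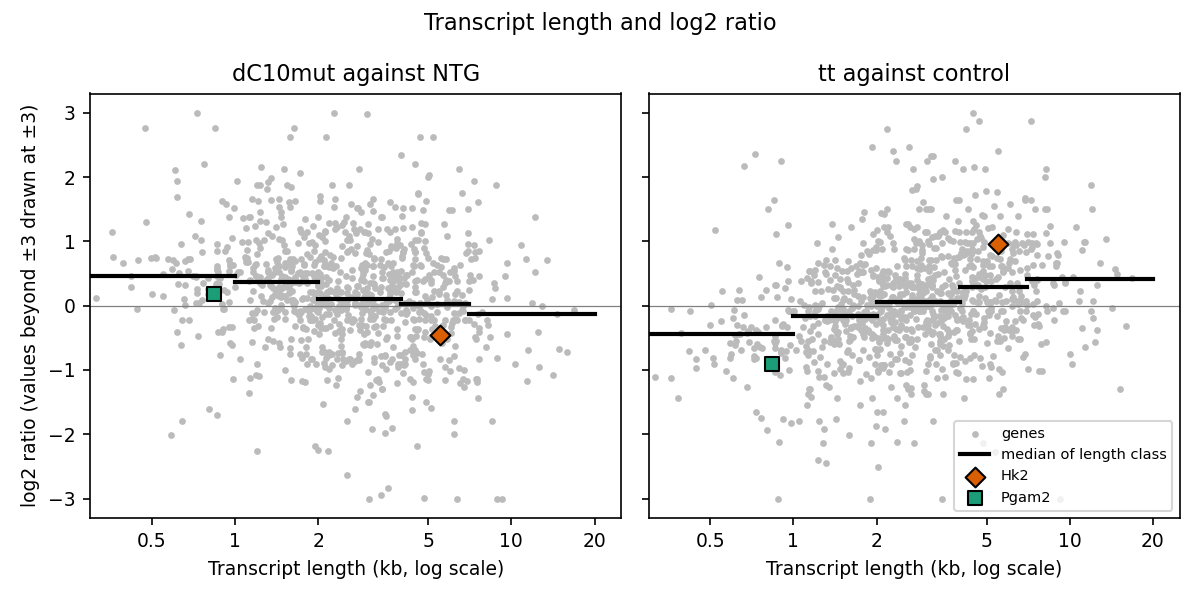
Log2 ratio (dC10mut over NTG at left, tt over control at right) against transcript length in kb on a log axis; grey points are genes with 1 transcript row, no exon facing another gene and at least 10 counts, black lines the medians of 5 length classes. The Hk2 diamond and the Pgam2 square lie on the same sides of 0 as the medians of their length classes in tt against control, at 0.96 and -0.91.

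Mybpc3, the mouse gene of cardiac myosin binding protein C, held 368 counts in dC10mut against 344 in NTG and 412 in tt against 266 in control. Counts per gene do not separate the altered from the normal allele or transgene. Other cell types were looked for with marker lists. The 12 heart muscle cell markers held 7084 counts in dC10mut, 4930 in NTG, 5379 in tt and 5611 in control, with counts in 10 of 12, led by Myl2 and Actc1; Tnnt2 and Myl3, which have several rows, were at 0. Skeletal muscle, which also uses Pgam2, was represented by 3 of 10 markers and 3 to 11 counts per library, and Myh1, Myh2, Myh4, Pvalb, Tnnc2, Tnni2 and Tnnt3 were at 0. The 7 red cell markers and 7 fat cell markers were at 0 throughout. How shared reads and strands were counted was not given in the sources used here. A marker at or near 0 therefore does not show that its cell type was absent. This holds also with 1 row, as for Hba-a1 and Hba-a2. The endothelial sum was lower in tt, at 737 CPM, against 1528 CPM in control. It was 1276 CPM in dC10mut against 1446 CPM in NTG. Of the 10 markers 6 were counted, and Pecam1, Tek, Emcn and Egfl7 were at 0. Fabp4 alone held 184 of 239 endothelial counts in dC10mut, 154 of 232 in NTG, 102 of 142 in tt and 203 of 278 in control. Fibroblast markers (7 of 8 counted, Postn at 0) summed to 219 CPM in dC10mut, 318 in NTG, 202 in tt and 390 in control. Macrophage and lymphocyte markers (6 of 10 counted, with Adgre1, Ptprc and Cd3e among those at 0) summed to 251, 93.5, 77.9 and 236 CPM in the same order. Lyz2 led that sum, with 28, 6, 5 and 28 counts. Smooth muscle and pericyte markers (4 of 6 counted, Myh11 and Pdgfrb at 0) summed to 918, 617, 670 and 863 CPM, led by Rgs5 with 120, 65, 86 and 95 counts. Of the 5 atrial markers only Nppa was counted, with 22, 9, 16 and 60 counts. Counts of Tsix, which lies opposite Xist, were 147 in dC10mut and 159 in tt, and 0 in NTG and control, so the sex of the pooled animals cannot be told apart from the mutation in either pair. The part of these differences in the Hk2 and Pgam2 ratios was not tested, and in bulk RNA fewer cells of a type cannot be told apart from less RNA per cell.

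The remaining 8 genes differ from Hk2 and Pgam2 in the way the tables list them, with 2 to 4 transcript rows each. Among protein-coding genes with 1 row, 15.1% of 13249 reached 10 counts in a library, against 3.00% of 3837 with 2 rows, 1.80% of 1778 with 3 rows and 2.26% of 1950 with 4 or more. The 1-row genes held 70.3% of all counts and the genes with several rows 9.47%. How reads shared between the rows of a gene were counted was not given in the sources used here. A listed 0, even for a gene used by every cell such as Gapdh, therefore gives no level of that gene in these hearts.

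**Figure D3:**
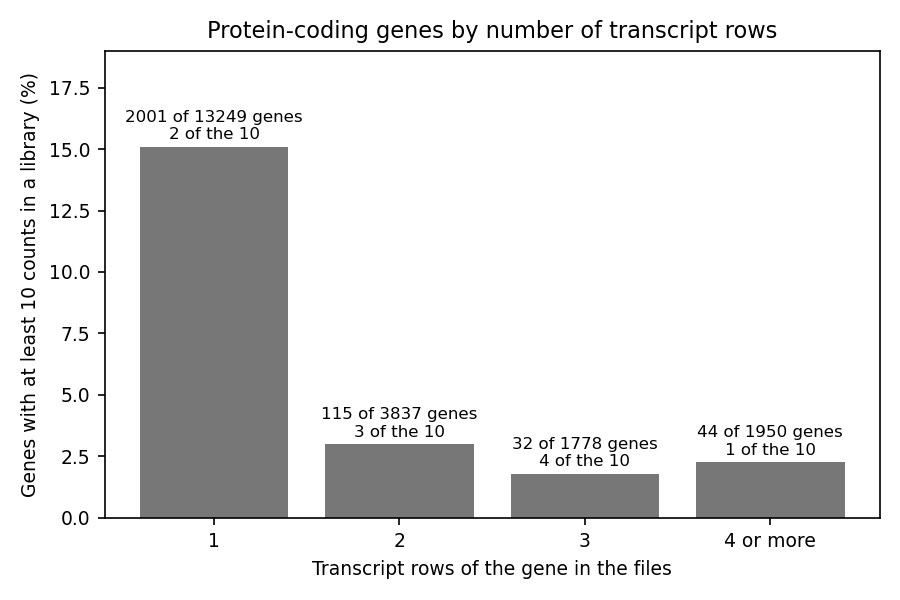
Share of protein-coding genes with at least 10 counts in at least 1 library (vertical axis, %) by the number of transcript rows of the gene (horizontal axis); the text above each bar gives the number of genes and how many of the 10 glucose genes fall there. The share was 15.1% for genes with 1 row, which include Hk2 and Pgam2, and at most 3.00% for the others.

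Slc2a4 (chr11:69942286-69948216, minus strand), the gene of the insulin-regulated glucose carrier GLUT4, had 2 rows and 0 counts. A count of 0 allows up to 3 counts, or 16.0 CPM in dC10mut, 18.7 in NTG, 15.6 in tt and 16.5 in control, and these limits cover counting error only; they are one-sided, below the upper ends of the two-sided Poisson intervals drawn for such genes, 19.7, 23.0, 19.1 and 20.3 CPM. Pfkm (chr15:98092589-98132447, plus strand) encodes the muscle form of phosphofructokinase, which commits the sugar to glycolysis. It held 1 count in dC10mut, 2 in NTG, 4 in tt and 0 in control, all in 1 of its 4 rows. An exon of Pfkm overlaps one of Senp1 on the opposite strand by 18 bases, and Senp1 held 0, 6, 3 and 4 counts in the same order. These counts are too few to order the libraries.

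Aldoa (chr7:126795234-126800994, minus strand), the aldolase that splits the sugar, held 1 count in dC10mut and 2 in each of the other libraries over 3 rows, and overlaps Tlcd3b on the opposite strand by 25 bases. Gapdh (chr6:125161852-125166467, minus strand), the dehydrogenase that yields cytosolic NADH, held 0 counts in its 2 rows, which have 75 and 222 bases that no other row covers. Eno3 (chr11:70653125-70662513, plus strand), the muscle enolase, held 2 counts in dC10mut and 0 in NTG, tt and control. Ldha (chr7:46842274-46855627, plus strand) and Ldhb (chr6:142490249-142507957, minus strand), the subunits of lactate dehydrogenase, held 0 counts in 3 rows each, so no share of Ldha among them could be formed. RefSeq lists pseudogene symbols for Gapdh (3), Ldha (3), Aldoa (2) and Ldhb (1), and such copies can share reads with their parent gene.

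Pkm (chr9:59656576-59679372, plus strand) makes pyruvate, and its transcripts use either of a pair of exons: the upstream one gives the M1 form typical of adult muscle and the downstream one the M2 form. Pkm held 5 counts in dC10mut against 1 in NTG, a log2 ratio of 1.70 with an interval from -1.06 to 7.66, and 4 counts in tt against 3 in control, 0.29 (-2.23 to 3.10). No difference was detectable. The row with the upstream exon held 5 counts in dC10mut, 1 in NTG, 3 in tt and 3 in control, and the row with the downstream exon 0, 0, 1 and 0. The exons are printed because they are what sets these rows' isoforms apart. They were read from GENCODE release M21 transcripts on GRCm38, plus strand, at chr9:59675029-59675195 (upstream) and chr9:59675568-59675734 (downstream), both 167 bases long, and capitals mark the 64 positions where they differ when laid side by side.
Upstream exon: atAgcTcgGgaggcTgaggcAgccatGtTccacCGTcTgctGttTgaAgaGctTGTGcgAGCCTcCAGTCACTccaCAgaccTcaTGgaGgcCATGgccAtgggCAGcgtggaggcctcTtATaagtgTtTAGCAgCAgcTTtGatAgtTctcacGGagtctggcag
Downstream exon: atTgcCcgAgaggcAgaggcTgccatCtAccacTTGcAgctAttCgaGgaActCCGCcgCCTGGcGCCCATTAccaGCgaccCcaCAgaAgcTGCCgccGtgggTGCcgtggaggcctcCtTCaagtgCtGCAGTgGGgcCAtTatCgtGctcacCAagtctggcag
The exons were identical at 61.7% of positions. The 167 bases of the upstream exon are all that the first row holds alone, while the second holds 558 bases alone, so the rows did not have equal chances of a count.

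Isozymes of the same steps were set beside the members. Pgam1, the widely expressed mutase with 1 row, held 0 counts in every library, so Pgam2 made up 100% of the mutase counts, with exact Clopper-Pearson lower bounds of 96.3% in dC10mut, 95.1% in NTG, 93.2% in tt and 96.1% in control. Hk1, with 2 rows, held 1 count in tt and 0 elsewhere, and Hk2 made up 98.0% of the hexokinase counts in tt (89.55% to 99.95%) and 100% in the others, with lower bounds of 87.2% in dC10mut, 89.1% in NTG and 85.8% in control. Since Hk1 has several rows, this share gives no balance of the isozymes in these hearts. The strand setting of the counting was not given in the sources used here, so the listed 0 of Pgam1 gives no level of it either. The bounds of both shares cover counting error only. Eno1 held 2, 0, 3 and 1 counts and Slc2a1 3, 2, 2 and 4 in dC10mut, NTG, tt and control, while Pfkl, Pfkp, Aldoc and Eno2 were at 0. Shares in these other families rest on at most 5 counts per library and order nothing.

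The other genes around the pathway were followed with 9 lists holding 125 genes. In dC10mut against NTG, 4 were higher and 2 lower by the 2-fold rule among 73 with a ratio, and of the 31 with at least 10 counts 4 were higher and 1 lower, 16.1% beside 13.1% of all such genes. In tt against control, 1 was higher and 1 lower among 72, and the same 2 genes among the 35 with at least 10 counts, 5.71% beside 12.8%. In control against NTG, 1 was higher among 69, beside 3.09% of all genes with a ratio. The median log2 ratio of the list genes with at least 10 counts was 0.36 in dC10mut against NTG, 0.12 in tt against control and 0.17 in control against NTG, beside 0.01, -0.00 and -0.03 over all such genes.

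**Figure D4:**
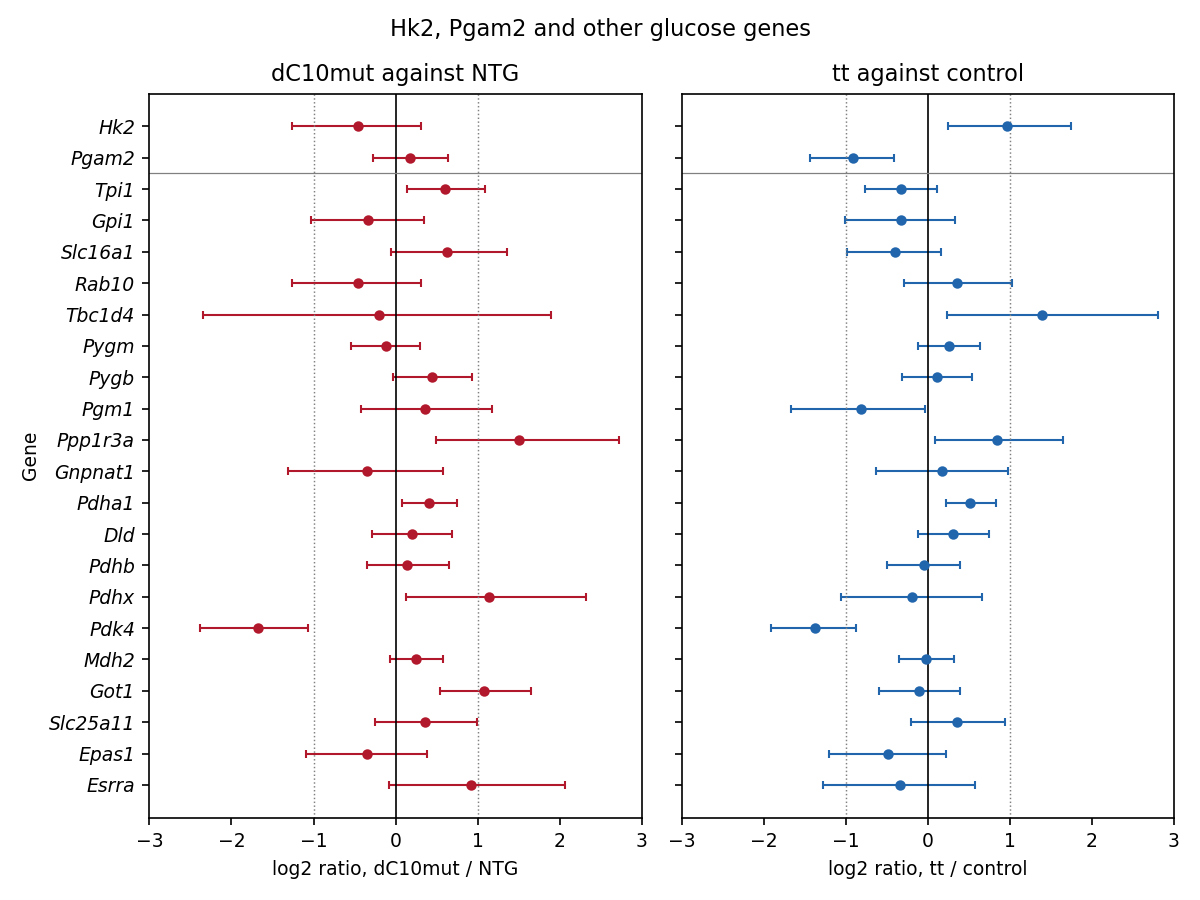
Log2 ratio of Hk2, Pgam2 and named genes of the 9 lists with at least 20 counts in a library, dC10mut over NTG at left and tt over control at right; bars are exact 95% counting intervals, dotted lines mark 2-fold. Pdk4 lay beyond 2-fold in the lower direction in both panels, at -1.68 and -1.37.

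Pdk4, the kinase that switches off pyruvate dehydrogenase and so holds pyruvate back from oxidation, was lower in both mutant libraries. It held 28 counts in dC10mut against 78 in NTG, a log2 ratio of -1.68 (-2.38 to -1.06), and 46 in tt against 113 in control, -1.37 (-1.91 to -0.87). Both mutant libraries lay below both NTG and control. For Pdk4 the common mutant difference was a log2 fold change of -1.54 (edgeR quasi-likelihood test, Benjamini-Hochberg adjusted p = 0.0257). It was the only gene of the lists that passed this test, whose calls also include the X- and Y-linked genes named above. The sign held in all 9 alternatives, with adjusted p between 0.00159 and 0.998, and the call did not: it was lost under DESeq2, where 0 genes passed and 43 had an unadjusted p under 0.05, with library totals (edgeR adjusted p = 0.0529), with a minimum of 10 counts in 2 libraries (0.594), and without the block (0.716). Without the block and 1 library, the edgeR adjusted p was 0.280 without dC10mut, 0.809 without NTG, 0.812 without control and 0.00159 without tt.

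Of the other genes of pyruvate entry, Pdhx, the binding protein of the pyruvate dehydrogenase complex, was higher in dC10mut with 29 counts against 11 in NTG, 1.14 (0.13 to 2.32). It did not pass in tt, with 24 counts against 26 in control. Pdha1, the catalytic subunit, held 188 counts in dC10mut against 121 in NTG and 228 in tt against 150 in control. The log2 ratios were 0.41 (0.08 to 0.75) and 0.52 (0.22 to 0.83), both under 2-fold with intervals that left out equality. Map3k15, on the opposite strand of Pdha1, gave -0.33 (-0.37 to -0.30) and 0.10 (0.06 to 0.13) in the same pairs. Reads of Pdha1 and Map3k15 cannot be told apart. Pdhb and Dld, further subunits, gave 0.14 and 0.20 in dC10mut against NTG and -0.05 and 0.31 in tt against control, all with intervals across equality.

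The steps between hexokinase and the mutase could be followed through Tpi1 and Gpi1, the isomerases. Tpi1 held 107 counts in dC10mut against 60 in NTG, 0.61 (0.14 to 1.09), and 83 in tt against 98 in control, -0.32 (-0.76 to 0.11). Its ratios had the same signs as those of Pgam2, and the tt interval included equality. Gpi1 held 36 counts in dC10mut against 39 in NTG and 37 in tt against 44 in control, with log2 ratios of -0.33 in both pairs and intervals across equality. None of the 17 other glycolysis enzymes passed the 2-fold rule in either pair, and only Tpi1 and Gpi1 of them reached 10 counts.

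Among the carriers, Slc16a1, which moves lactate and pyruvate across the membrane, held 51 counts in dC10mut against 28 in NTG, 0.63 (-0.05 to 1.36), and 48 in tt against 60 in control, -0.40 (-0.98 to 0.17). Neither passed the rule, nor did any of the 10 genes of that list. In the list of insulin signal and GLUT4 traffic, Tbc1d4, the Akt substrate that holds GLUT4 vesicles back until insulin acts, was higher in tt with 23 counts against 8 in control, 1.39 (0.23 to 2.81), and held 5 counts in each of dC10mut and NTG. It was 1 of the 6 genes of that list with at least 10 counts, beside 12.8% of all such genes, and the only one of the 18 that passed in tt against control, and none passed in dC10mut against NTG. Rab10, a GTPase of the same vesicles, held 27 counts in dC10mut against 32 in NTG and 49 in tt against 36 in control, with both intervals across equality; Irs1, an adaptor of the insulin receptor, gave 0.73 and 0.79 and Stx4a, a membrane fusion protein, -0.65 and -0.41, likewise across equality. Of the list for control of fructose bisphosphate and fructose, Fbp1, the reverse enzyme of phosphofructokinase, was lower in dC10mut with 0 counts against 6 in NTG, and Pfkfb2, the heart form of the kinase that makes the activator of phosphofructokinase, held 9 counts in dC10mut against 4 in NTG and 17 in tt against 8 in control without passing. The tt against control log2 ratio of Pfkfb2, which has 4 rows and faces Yod1, was 0.96 (-0.28 to 2.43); it was 2.85 (0.56 to 8.77), past the rule, with the row of most counts and -0.30 (-2.18 to 1.47) with facing rows left out.

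Glycogen genes were among the best counted. Ppp1r3a, which brings protein phosphatase to glycogen in muscle, was higher in dC10mut with 34 counts against 10 in NTG, 1.5 (0.49 to 2.72); it held 44 in tt against 23 in control, 0.84 (0.09 to 1.65), under 2-fold. The control library also held more than NTG, with a log2 ratio of 0.99 (-0.11 to 2.26). The phosphorylases Pygm and Pygb, which release glucose phosphate from glycogen, held 100 and 97 counts in dC10mut against 93 and 61 in NTG, and 137 and 101 in tt against 108 and 88 in control, with all intervals across equality. Pgm1, which links glycogen to glycolysis, gave -0.82 (-1.66 to -0.03) in tt against control, from 22 counts in tt against 37 in control, and 0.36 in dC10mut against NTG.

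In the branches and shuttles, Taldo1, a transaldolase of the pentose phosphate path, was higher in dC10mut with 17 counts against 5 in NTG, 1.46 (0.04 to 3.34), and held 10 counts in tt against 13 in control. Got1, the cytosolic transaminase of the malate-aspartate shuttle, was higher in dC10mut with 99 counts against 40 in NTG, 1.08 (0.54 to 1.65), and held 71 counts in tt against 72 in control. The control library also exceeded NTG for Got1, 0.66 (0.09 to 1.26). With facing rows left out of the scaling, Got1 gave 0.98 and Taldo1 1.37 with an interval from -0.05, so neither passed. In all 4 genes that were higher in dC10mut (Ppp1r3a, Pdhx, Taldo1 and Got1), NTG was the lowest of the 4 libraries. Mdh2 and Slc25a11, also of the shuttle, gave 0.26 and 0.36 in dC10mut against NTG and -0.02 and 0.36 in tt against control, all across equality. Of the 18 transcription factors known to act on glycolytic genes, none passed the rule; Epas1 gave -0.35 and -0.48 and Esrra 0.92 and -0.34 in the dC10mut and tt pairs, and the list held 15 genes with several rows, none of which reached 10 counts.

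Because the library kit keeps the strand and the strand setting of the counting was not given in the sources used here, genes that face each other were compared. Of 218 pairs of a coding and a noncoding gene with overlapping exons on opposite strands and at least 50 summed counts in either, the noncoding row was higher in 189 (86.7%), and among those with 1 row each in 83 of 100. Pdha1 faces Map3k15, which held 11101 counts in dC10mut, 11983 in NTG, 14012 in tt and 12362 in control. Txnip, a brake on glucose uptake, was listed at 0 in its 2 rows, while Gm15441 opposite it held 1601 counts in dC10mut against 1907 in NTG, -0.48 (-0.57 to -0.38), and 2375 in tt against 1685 in control, 0.41 (0.32 to 0.50). Gpd1, the dehydrogenase of the glycerol phosphate shuttle, held 36, 23, 48 and 30 counts in dC10mut, NTG, tt and control, beside 483, 357, 385 and 360 for Gm16537 opposite it. Reads of such partners cannot be told apart here. No annotated exon faces Hk2 or Pgam2, and from which strand their own counted reads came cannot be told.

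**Figure D5:**
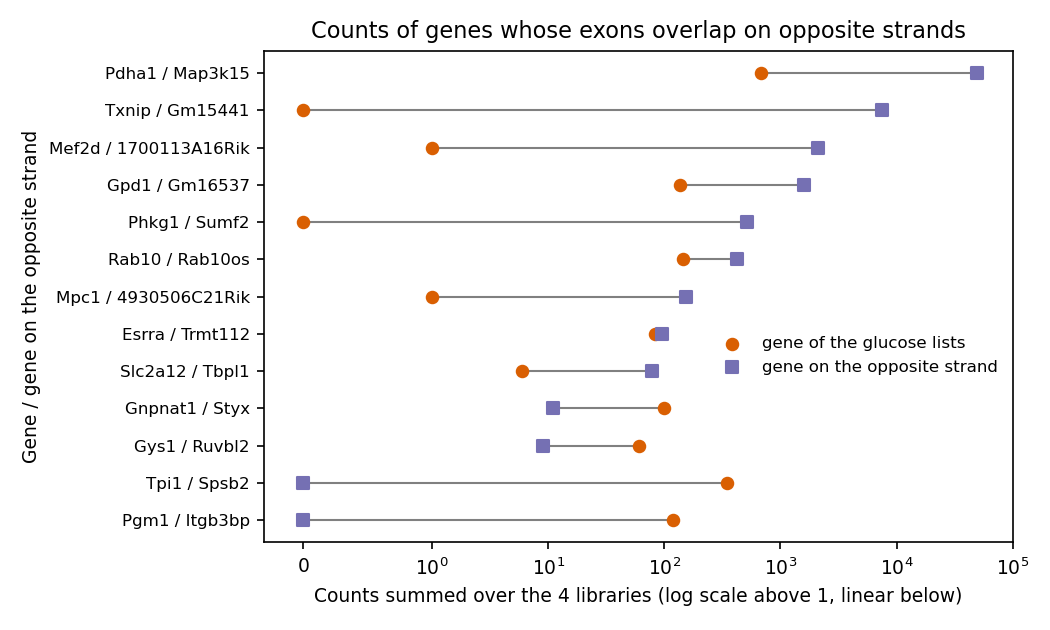
Counts summed over the 4 libraries (horizontal axis, log scale above 1) for genes of the 9 lists, circles, and for the gene whose exon overlaps theirs on the opposite strand, squares, for all pairs with at least 50 counts in either. The square lies to the right of the circle in 9 of 13 pairs, up to 49458 against 687 counts for Map3k15 and Pdha1, and to its left in 4, up to 348 counts for Tpi1 against 0 for Spsb2.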

How the data were processed

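The deposited values were raw read counts per RefSeq transcript row, whole numbers without normalization; per the submitters' processing notes, STAR, HTSeq and the build mm10 were used. Their versions, how overlaps were counted and the strand option are not given in the sources used here. Per the labels' protocols, poly(A) RNA was made into stranded libraries. Of 41449 rows, 41252 matched a symbol and were summed per gene. The other 197 matched none, and each was kept as a gene of its own in the totals, scaling and shares. The tables held 0 lines for unassigned reads. Total counts were 170543 to 187365 per library, so 1 count equals 5.19 to 6.24 scaled CPM. Every interval and floor covers counting error alone.

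Counts were scaled with TMM factors (edgeR 4.0.16, R 4.3.3) over genes with a count. Log2 ratios used a prior count of 0.5 and an exact Clopper-Pearson conditional binomial 95% interval (scipy 1.17.1). Ratios were called at 2-fold with an interval excluding equality. The common mutant difference used the quasi-likelihood test of edgeR, blocked by pair, on genes reaching 1 CPM in 2 or more libraries, adjusted by Benjamini-Hochberg (threshold 0.05). It leaves 1 residual degree of freedom per gene. DESeq2 1.42.0 was an alternative. Both procedures were tested on simulated data, with changes larger than those of Hk2 and Pgam2 and alike in both mutant libraries. Such data do not show how the procedures do with smaller ratios of opposite sign. Alternatives covered scaling, prior count, filters, fold, row choice, facing rows and left-out libraries.

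The 10 genes and all lists were chosen with earlier results of these data known. Named were the 10 genes, their isozymes and facing genes, up to 3 genes per list by summed count and those called with at least 10 counts, and up to 2 markers per list. A rule for genes of like profile needed 100 counts in every library, which 0 of the 10 genes reached, so it named none. A few items that these rules would name are not reported here. Fbp1, Gpd1 and Txnip and the facing genes of list members were named after their values were seen. Promoters came from RefSeq (GRCm38.p6), and exons, lengths and overlaps from GENCODE M21.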

Additional observations from a re-analysis of the deposited data

Results flagged for a closer look

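Hk2 and Pgam2 had ratios of opposite sign in the pairs, with intervals in dC10mut against NTG that included equality. The log2 ratio of tt against control minus that of dC10mut against NTG was 1.42 for Hk2 and -1.09 for Pgam2. With 1 library per group this difference was not tested beyond its counting interval. Length classes also differed between the pairs. Genes under 1 kb, like Pgam2, had a median log2 ratio of -0.44 in tt against control and 0.46 in dC10mut against NTG. Genes of 4 to 7 kb, like Hk2, had medians of 0.28 and 0.03 in the same order. The part of length in the difference between the pairs was not tested.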

How the results depend on the processing

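The log2 ratios of Hk2 and Pgam2 kept their sign under all 7 alternatives in each pair. In tt against control they ran from 0.92 to 0.98 and from -0.95 to -0.89. In dC10mut against NTG they ran from -0.56 to -0.37 and from 0.08 to 0.27. The 1.5-fold limit and the minimum of 10 counts cannot change a ratio. Both genes have 1 row and no facing exon, so row choice and facing rows act only through the scaling. The kept signs are therefore a weak check. In the common difference, which has the pair as a block, 8 genes were higher and 5 lower; without the block 1 was higher and 0 lower, with any count as filter 3 were lower, with at least 10 counts in at least 2 libraries 1 was higher and 0 lower, with library totals 1 was lower, and under DESeq2 0 were called each way, with 43 genes at an unadjusted p under 0.05. Leaving out 1 library, with no block and the lone library assumed to vary like the others, gave 0 to 9 higher and 0 to 13 lower (0 each way without NTG or without control). Hk2 then ran from -0.19 (without tt) to 0.65, with -0.0025 without control, and Pgam2 from -0.85 to 0.10 (without tt). With facing rows left out, 83 genes were higher and 105 lower in dC10mut against NTG (2 list genes higher), 99 and 86 in tt against control, and 64 and 76 in control against NTG. At 1.5-fold, 242 genes were lower in tt against control (list genes 2 higher, 3 lower) and 217 in control against NTG (4 list genes higher). In control against NTG, library totals gave 84 lower and 4 list genes higher, and DESeq2 size factors 2 list genes higher. With the row of most counts, 2 list genes were higher in tt against control, and with a minimum of 10 counts 1 was lower in dC10mut against NTG. Of 312 values of named list genes under these alternatives, 305 stayed on their side of the rule, 5 passed newly and 2 no longer passed. The 47 values under the minimum of 10 counts were the same by construction, and row choice acts on genes with 1 row only through the scaling. With facing rows left out, genes without another row had no value, and of the values kept 28 stayed and 2 no longer passed. The 305 are therefore a weak check too. Where no construction accounts for a change, the cause was not tested. At these totals, genes under about 10 counts could not be compared.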

Other observations

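Ckm, the muscle creatine kinase, held 432 counts in dC10mut against 342 in NTG and 290 in tt against 309 in control, while A930016O22Rik on the opposite strand held 7139 against 7272 and 5781 against 6674. The noncoding row 1700113A16Rik, opposite Mef2d, a transcription factor of muscle genes, was lower in dC10mut with 334 counts against 673 in NTG, a log2 ratio of -1.23 (-1.43 to -1.04), and held 416 in tt against 692 in control, -0.82 (-0.996 to -0.639). Reads of such partners cannot be told apart, and these genes were chosen after their values were seen.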
